A study of Mus musculus with 2 samples.

Results

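Osr1 muscle connective tissue cells of the embryonic mouse limb were defined here as collagen-expressing cells with a transcript of Osr1 and none of 5 genes that mark other cells. A cell was taken if it had at least 500 detected genes, under 10% of its UMIs from mitochondrial genes, at least 1 UMI of Osr1, at least 1 UMI of Col1a1 or Col3a1, and 0 UMIs of Myog, Matn1, Cdh5, Ptprc and Gdf5. A UMI (unique molecular identifier) stands for 1 captured RNA molecule. The rule found 1306 such cells at E12.5 (E for embryonic day) and 1260 at E15.5, 2566 of the 18721 deposited cells. They were compared, within each library, with the 6860 and 1907 cells that met every other condition but had 0 Osr1 UMIs. Both groups were selected on measured Osr1 counts, so the Osr1 levels that follow describe the choice and support nothing.

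Osr1 (gene identifier ENSMUSG00000048387, mouse chromosome 12, 9570116 to 9581500 of build GRCm38, forward strand) encodes a zinc-finger transcription factor of the odd-skipped family. In the developing limb it is known as a marker of muscle connective tissue, the irregular connective tissue that surrounds growing myofibres. Such cells deposit matrix around muscle, release signals that act on myogenic cells and include precursors of the fibro-adipogenic progenitors of adult muscle. Related limb mesenchyme gives rise to cartilage under Sox9 and to tendon under Scx.

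The study profiled limb skeletal muscles of wild-type C57Bl/6 mice, with 1 library from E12.5 embryos and 1 from E15.5 embryos. Forelimbs and hindlimbs entered the same library, and the tissue was dissociated mechanically and with trypsin. Libraries were made with a droplet-based 10x Genomics kit that captures the 3′ ends of transcripts, from 20000 input cells each with a target of 10000. The labels give neither the number nor the sex of the embryos, so each library may pool several. With 1 library per age there was no replicate, no test was made, and every interval is a 95% interval that covers counting error only.

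The deposited libraries held 12941 and 5780 cells with 34907675 and 46966083 UMIs, of which 12271 and 4106 cells were kept. Depth differed between ages and groups. The median Osr1-positive cell had 2872.5 UMIs at E12.5, against 2341 in Osr1-zero cells, and 10287 against 8521 at E15.5. A total of 17 barcodes occurred in both libraries. Such a barcode was carried by 1 Osr1-positive cell in the E12.5 library and by 4 in the other, and 0 were Osr1-positive in both. Mitochondrial genes took a median of 2.91% and 3.27% of the UMIs of Osr1-positive cells, close to the 3.03% and 3.63% of Osr1-zero cells. Among cells with either an Xist UMI or a Y-linked UMI, those with Xist alone made up 69.9% of the Osr1-positive and 77.7% of the Osr1-zero cells at E12.5. At E15.5 the values were 80.5% and 79.4%.

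Most Osr1-positive cells were called on very few molecules. At E12.5, 946 of the 1306 cells (72.4%) had a single Osr1 UMI, 239 had 2, 83 had 3 and 38 had 4 or more, with a maximum of 8. At E15.5, 569 of the 1260 cells (45.2%) had a single UMI, 317 had 2, 195 had 3 and 179 had 4 or more, with a maximum of 22. Cells with more Osr1 UMIs were also deeper, with a median of 2758 UMIs for 1 Osr1 UMI against 4422 for 4 or more at E12.5, and 9602 against 13023 at E15.5. Few cells lay near the other thresholds: 2 members at each age had 500 to 549 genes, and 0 and 3 otherwise matching cells had 450 to 499. Between 9% and 10% mitochondrial UMIs lay 1 and 2 members, and between 10% and 11% lay 1 and 0 otherwise matching cells. Another 263 and 198 kept cells had an Osr1 UMI but failed the collagen or the 0-UMI conditions.

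The label was checked against markers of connective tissue and of other cells. Pdgfra, a growth factor receptor of mesenchymal cells, was at 497 CPM at E12.5, against 171 CPM at the later age, where CPM is the gene's UMIs summed over the cells of a group, per 1000000 UMIs of that group. Prrx1, a homeobox factor of limb mesenchyme, was at 925 and 280 CPM, and the collagen gene Col1a2 at 1248 and 3866 CPM. After each cell was thinned to 2000 UMIs, a Dcn UMI was found in 17.8% of the cells of the E12.5 library and in 72.8% (70.3 to 75.3) of those at E15.5. Among Cdh5-expressing endothelial cells, which serve as background, the shares were 1.89% and 19.1%. Pax7, the marker of muscle progenitors, was at 1.67 and 1.74 CPM, while the 14 muscle-lineage genes together were at 156 and 87.9 CPM. The 8 erythroid genes summed to 349 and 1758 CPM. The summed level of the 8 endothelial genes was 18.9 and 40.6 CPM, and that of the 9 immune genes 6.94 and 4.45 CPM. The 15 chondrogenic genes summed to 1770 and 439 CPM, the 9 tenocyte genes to 256 and 330 CPM and the 8 mural genes to 111 and 264 CPM. By these levels the cells carried connective tissue markers at both ages, while erythroid, cartilage, tendon and mural genes were also present. The connective tissue markers were not particular to these cells. In Osr1-zero cells Pdgfra was at 388 and 109 CPM and Prrx1 at 897 and 219 CPM.

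The share of collagen-positive cells with an Osr1 UMI was much higher at E15.5 at full depth. This gap was smaller at equal depth, with a size and sign that depended on the setting. At full depth it was 16.0% (15.2 to 16.8) in the E12.5 library but 39.8% (38.1 to 41.5) at E15.5. Thinned to 2000 UMIs, with 2740 and 193 shallower cells left out, it was 13.2% (12.3 to 14.1; 715 of 5426 cells) and 13.9% (12.7 to 15.2; 414 of 2974 cells). The difference was 0.743 percentage points (-0.771 to 2.30), an interval that includes 0. The interval did not include 0 with 4000 UMIs (3.12 points, 0.212 to 5.91), with 7 more marker genes required at 0 (2.83 points, 1.03 to 4.68), or with the other conditions called after thinning, a setting chosen after seeing the data (1.69 points, 0.159 to 3.25). The summed level was near equal as well, with 83.6 CPM (79.8 to 87.5) and 85.0 CPM (81.9 to 88.3) of Osr1 over all these cells. In the connective tissue-like clusters described further on, however, the thinned share was 15.3% in the E12.5 library against 20.1% at E15.5, a difference of 4.81 points (2.66 to 7.02). The thinned difference was also above 0 in cells with Xist UMIs alone, but below 0 in cells with Y-linked UMIs alone.

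Osr1 was also found in cells that the rule left out, at shares that varied between classes and ages. Thinned to 2000 UMIs, 2.36% (0.770 to 5.42) of the Cdh5 cells of the E12.5 library had an Osr1 UMI, against 3.72% (1.51 to 7.52) at E15.5, from median full depths of 3388 and 12285 UMIs. In Ptprc cells, which are leukocytes, the shares were 3.64% and 2.24%. These shares are the measured background of cell types that should lack the gene, and at full depth they reached 4.69% and 18.5% in Cdh5 cells. Gdf5 cells, of the joint interzone, stood above it with 8.97% (6.77 to 11.6) and 14.2% (8.62 to 21.5). Matn1 cells, which are chondrocytes, had 3.28% and 11.8%, the latter from 85 cells. Myog cells, which are differentiating myocytes, had 2.16% (0.938 to 4.22) in the earlier and 11.8% (8.56 to 15.7) in the later library. At E15.5 the intervals of Gdf5, Matn1 and Myog cells included the 13.9% found in the collagen-positive cells of the comparison. Cells without a Col1a1 or Col3a1 UMI had 1.45% in the E12.5 library, and 0 of 122 such cells did at E15.5, with an exact upper bound of 2.98%.

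**Figure D1:**
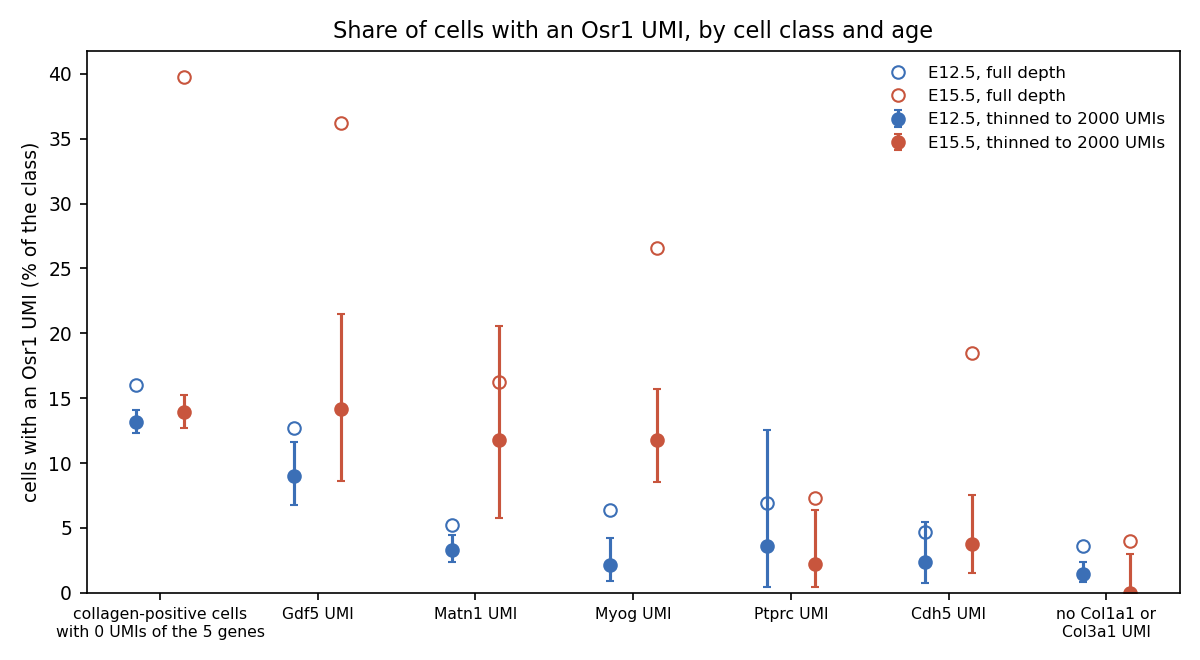
Percent of cells with an Osr1 UMI (y axis) in 7 cell classes (x axis) at E12.5 (blue) and E15.5 (red), at full depth (open circles) and thinned to 2000 UMIs (filled circles, with exact 95% binomial intervals). The collagen-positive cells from which the Osr1-positive cells were taken sit at 13.2% and 13.9% once thinned, while Cdh5 cells sit at 2.36% and 3.72%.

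Osr1 was spread unevenly over the connective tissue. All cells that met the conditions other than Osr1 were clustered within each library, with the 8 genes of the rule left out of the clustering, into 21 clusters at E12.5, against 25 at the later age. Connective tissue-like clusters, 9 at each age, held 991 of the 1306 Osr1-positive cells at E12.5 (75.9%), against 1085 of the 1260 at E15.5 (86.1%). Those clusters made up 61.2% and 58.0% of all clustered cells. They had matched no other class, and their connective tissue markers were above those of non-mesenchymal clusters such as muscle-like ones. The class was thus broad: among its clusters at E12.5, Sox9 ran from 156 to 963 CPM and Dcn from 0 to 718 CPM. Chondrogenic-like clusters held 106 (8.12%) and 51 (4.05%) of the Osr1-positive cells, tenocyte-like clusters 14 and 22, and muscle-like clusters 9 and 6. Clusters without a name held 174 and 70.

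At E12.5 the thinned Osr1 share was highest, at 35.1% (28.4 to 42.2), in an unnamed cluster led by Grem1, Col6a5, Alx1 and Kera. Next were clusters led by Hoxb4 and Akap12 (29.2%, 24.5 to 34.4) and by Calb2 and Apod (24.3%, 20.3 to 28.6), whose intervals overlap. Grem1 encodes a secreted BMP antagonist, and Hoxb4 is a homeobox gene of proximal position. Among clusters with at least 50 thinned cells, the shares were lowest in those led by Hapln1 and Acan (1.64%), by Gria2 and Isl1 (2.04%), by the muscle genes Acta2, Msc and Pax7 (2.61%) and by Pf4 and Ppbp (2.99%). Hapln1 and Acan code for cartilage matrix. The largest chondrogenic-like cluster, of 832 cells led by Scrg1, stood higher at 11.0% (8.16 to 14.5). Not every connective tissue-like cluster had a high share, and that led by Shisa2 and Tbx4 had 5.56% (2.99 to 9.31). The 2 connective tissue-like clusters led by histone genes, which mark cells copying DNA, differed as well, at 17.5% (14.8 to 20.4) and 4.08% (2.63 to 6.01). Sox9 was at 257 CPM in the former and at 810 CPM in the latter.

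At E15.5 the highest share, 43.4% (34.1 to 53.0), was in a cluster of 113 cells led by Dpt, Htr1f, Cd55, Has1 and Gata6. Dpt encodes the matrix protein dermatopontin, and Has1 a hyaluronan synthase. A cluster led by Fst, Tmem158 and Pappa followed with 30.1% (25.3 to 35.3), where Fst encodes the activin and myostatin antagonist follistatin. Clusters led by Cxcl13 and Aldh1a2 (23.0%), by the mitotic genes Nusap1 and Hmmr (20.4%) and by Clec3b, Tnxb and Mfap5 (20.1%) did not differ beyond their intervals. The share was 5.15% in the tenocyte-like cluster led by Tnmd and Scx and 4.90% in a chondrogenic-like cluster led by Col2a1. In the 2 muscle-like clusters 1 of 125 and 0 of 105 thinned cells had an Osr1 UMI, the latter with an upper bound of 3.45%.

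**Figure D2:**
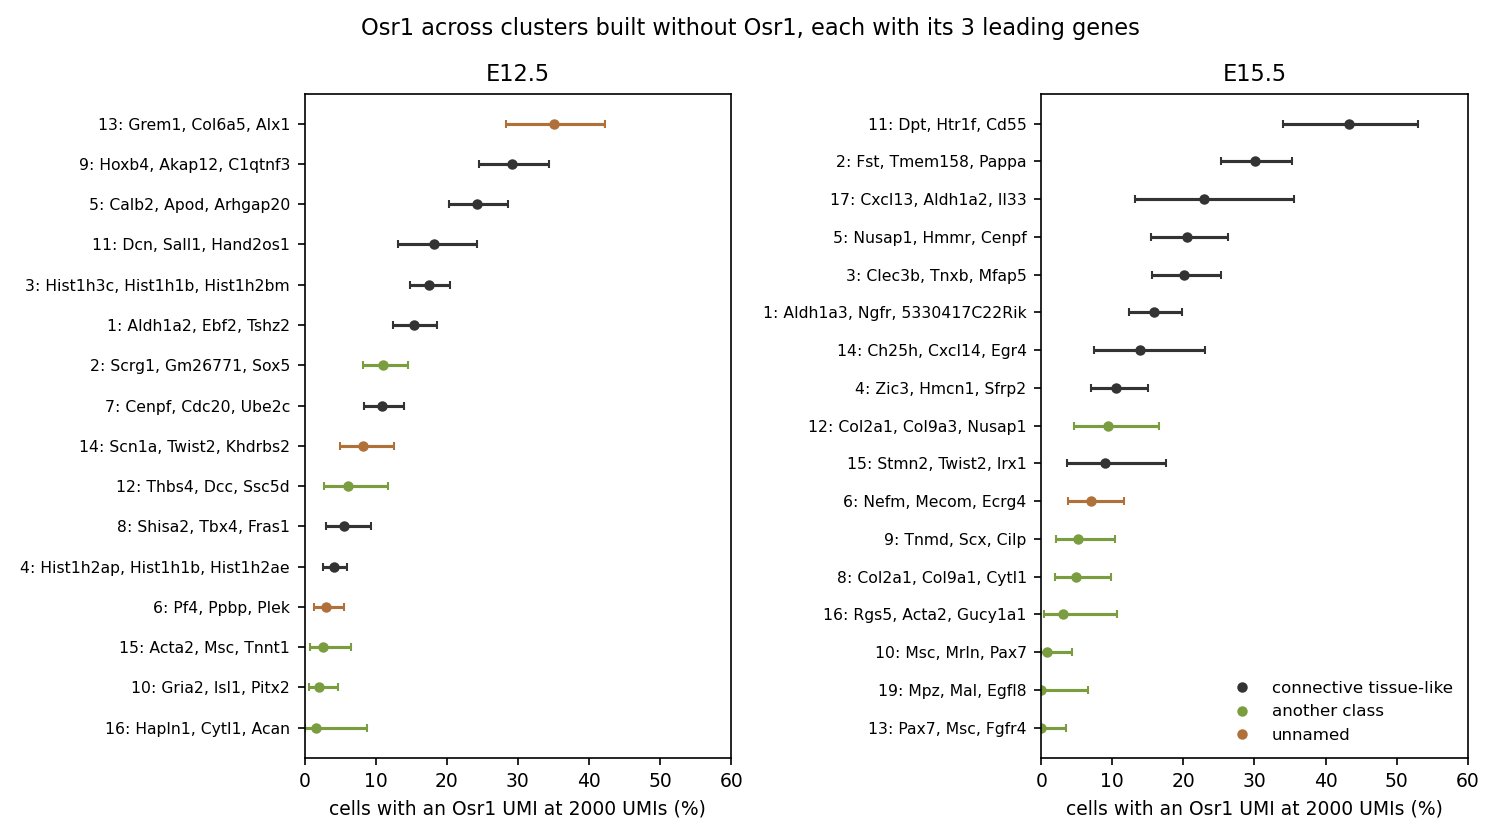
Percent of cells with an Osr1 UMI after thinning to 2000 UMIs (x axis, exact 95% binomial intervals) in each cluster with at least 50 such cells (y axis, cluster number and 3 leading genes), at E12.5 (left) and E15.5 (right). The share runs from 1.64% to 35.1% at E12.5 and from 0% to 43.4% at E15.5, with muscle clusters near the low end at both ages and cartilage clusters at E12.5 between 1.64% and 11.0%.

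To describe what else Osr1-positive cells expressed, their UMIs were summed and compared with the sum over Osr1-zero cells of the same library, for genes at 20 CPM or more in at least 1 of the groups. A gene that reached 20 CPM in only 1 group was by that choice higher there. At E12.5, 128 of 7261 genes (1.76%) were at least 1.5-fold higher and 74 (1.02%) at least 1.5-fold lower. At E15.5, 321 of 6621 genes (4.85%) were higher and 233 (3.52%) lower by that measure. Depth differed between the ages, and detection of Osr1 depended on depth, so Osr1-zero cells can include cells whose Osr1 went undetected. With cells thinned to 2000 UMIs before they were called, 196 of 7326 genes were higher and 162 lower at E12.5. At E15.5, 238 of 6692 were higher and 292 lower in the thinned cells. In the full counts, overlap between the ages was as follows. Of the higher genes, 45 were shared, 35.2% of the E12.5 list and 14.0% of the E15.5 list. Of the lower genes, 30 were shared, 40.5% and 12.9% of the lists. The median gene was at a log2 ratio of 0.02 in the E12.5 and 0.04 in the E15.5 library.

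These ratios mix differences between clusters with differences inside them, and far fewer genes passed 1.5-fold once clusters were matched. With Osr1-zero cells weighted to the clusters of the Osr1-positive cells, 22 of 7223 genes were at least 1.5-fold higher and 11 lower at E12.5. At E15.5, 12 of 6497 were higher and 21 lower. In the connective tissue-like clusters alone, 93 of 7240 genes were higher and 59 lower at E12.5, and 135 of 6512 higher and 54 lower at E15.5. The weighting and this restriction were chosen after seeing the data. Each gene below is therefore given with its plain log2 ratio and, for part of the genes, its cluster-matched one or its ratios inside clusters. A plain ratio given alone does not show that a difference holds inside clusters.

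Among 24 transcription factors of connective tissue, 23 reached 20 CPM at E12.5, where 1 was at least 1.5-fold higher, 0 were lower and the median log2 ratio was 0.14. At E15.5, 20 reached it, 7 were higher, 2 were lower and the median was 0.45. With clusters matched, 0 were higher at either age, with 0 and 1 lower and medians of 0.04 and 0.06. Within the connective tissue-like clusters 0 were higher as well, with 0 and 3 lower and medians of 0.06 and -0.03. Osr2, the paralog of Osr1, was at 83.0 CPM (74.5 to 92.2) in Osr1-positive and 65.0 CPM (61.3 to 68.9) in Osr1-zero cells at E12.5, and at 104 CPM (98.5 to 109) and 53.3 CPM (49.9 to 56.8) at E15.5. The log2 ratios of Osr2 were 0.35 (0.18 to 0.53) and 0.96 (0.84 to 1.08), and 0.31 and 0.46 with clusters matched. At E15.5 the ratio was above 0 in 12 of 12 clusters with at least 20 cells of each group, and at E12.5 in 9 of 12. With Osr1 called at full depth and Osr2 counted at 2000 UMIs, an Osr2 UMI was present in 16.8% (14.8 to 19.0) of Osr1-positive cells at E15.5. The share was 9.55% (8.21 to 11.0) in Osr1-zero cells and 3.72% in Cdh5 cells. With both genes at full depth, it was 48.7% in Osr1-positive and 26.0% in Osr1-zero cells.

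Tcf7l2, a Wnt effector used as a marker of muscle connective tissue fibroblasts, hardly separated the groups at E12.5, with 510 against 457 CPM (log2 ratio 0.16, 0.09 to 0.23). At E15.5 it was at 354 against 205 CPM (0.79, 0.72 to 0.85), of which 0.13 remained with clusters matched. Prrx1 was at the same level in both groups at E12.5 (0.04, -0.01 to 0.09). The factors at least 1.5-fold higher at E15.5 also included the T-box genes Tbx15 (0.94) and Tbx18 (0.98), Ebf2 (1.01), Klf4 (0.76) and Twist2 (0.73). With clusters matched these 5 were at 0.36, 0.15, 0.04, 0.15 and 0.22. The 1 factor past the fold at E12.5 was the dorsal limb gene Lmx1b, at 59.6 against 39.5 CPM (0.59, 0.38 to 0.80). Foxp1 (-0.63) and Foxp2 (-0.66) were the 2 lower factors at E15.5, and in both the cluster-matched ratio was near 0 (0.00 and -0.16).

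Fibroblast and fibro-adipogenic progenitor genes had a median ratio above 0 at both ages, and few of them passed the fold once clusters were matched. Of 22 such genes, 10 reached 20 CPM at E12.5, of which 3 were at least 1.5-fold higher, 0 were lower and the median was 0.36. At E15.5, 16 did, with 12 higher, 0 lower and a median of 0.71. With clusters matched, 1 of 10 was higher at the earlier age (median 0.16) and 0 of 17 at the later (median 0.08). Within the connective tissue-like clusters these counts were 2 of 10 (median 0.29) and 1 of 17 (median 0.08). Lum, a small leucine-rich proteoglycan of collagen fibrils, was at 310 against 121 CPM at E12.5 (log2 ratio 1.36, 1.26 to 1.46) and at 563 against 348 CPM at E15.5 (0.70, 0.65 to 0.74). Dcn, which encodes decorin, was at 139 against 64.9 CPM (1.10, 0.96 to 1.25) and at 1466 against 742 CPM (0.98, 0.95 to 1.01). With clusters matched, Lum kept 0.73 and Dcn 0.50 at E12.5, but 0.07 and 0.13 at E15.5. Within clusters at E12.5 each gene was higher in 11 of 12. At E15.5 the ratios of Dpt (1.82), Clec3b (1.56), Mfap5 (1.37), Smoc2 (1.22) and Cd34 (0.99) were between 0.01 and 0.53 with clusters matched, with Dpt the highest.

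Matrix genes were higher in part. Of 28, all reached 20 CPM at both ages. At E12.5, 7 were at least 1.5-fold higher and 0 lower, with a median of 0.22, and at E15.5, 14 were higher and 2 lower, with a median of 0.57. With clusters matched, 1 was higher and 0 lower at the earlier age (median 0.08), and 0 passed the fold at the later (median 0.09). Within the connective tissue-like clusters 3 were higher and 0 lower (median 0.16) in the E12.5 library, and 0 higher and 1 lower (median 0.12) in that from E15.5. The 3 chains of collagen VI, which forms microfibrils around muscle fibres, were at 93.5 (Col6a1), 126 (Col6a2) and 121 CPM (Col6a3) at E12.5 against 61.4, 70.3 and 93.1 CPM in Osr1-zero cells. At E15.5 they were at 636, 574 and 668 CPM against 317, 284 and 341 CPM, log2 ratios of 1.01, 1.02 and 0.97. Cluster-matched values at E15.5 were 0.21, 0.25 and 0.16. Inside clusters at E12.5, Col6a1 was above 0 in 5 of 12 (median -0.04), Col6a2 in 11 of 12 (median 0.28) and Col6a3 in 8 of 12 (median 0.14). Lox, a collagen cross-linking enzyme, stood out at E12.5 with 127 against 52.0 CPM (1.29, 1.14 to 1.45; 0.73 with clusters matched), as did the basement membrane gene Nid1 with 98.8 against 51.8 CPM (0.93, 0.76 to 1.10). The 2 lower matrix genes at E15.5 were Tnc, at 35.5 against 61.7 CPM (-0.80), and Col8a1, at 25.8 against 58.7 CPM (-1.18). Vcan, a large proteoglycan, was lower at E12.5 (-0.44, -0.48 to -0.40) and higher at E15.5 (0.53, 0.50 to 0.57), both short of 1.5-fold.

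Of 28 genes for secreted signals, 22 reached 20 CPM at E12.5, with 3 at least 1.5-fold higher, 1 lower and a median of 0.15, and 26 at E15.5, with 12 higher, 1 lower and a median of 0.55. With clusters matched, 0 passed the fold in either direction at either age, with medians of 0.12 and 0.05. Within the connective tissue-like clusters 4 were higher and 1 lower in the earlier library (median 0.18), and 0 higher and 1 lower in the later (median -0.02). Wnt11 was at 40.7 against 18.6 CPM at E12.5 (log2 ratio 1.13, 0.86 to 1.40), and Ntn1, the guidance cue netrin-1, at 46.4 against 23.8 CPM (0.96, 0.71 to 1.21). Ntn1 was at 27.8 against 10.5 CPM at E15.5 (1.41, 1.15 to 1.66), and its ratio was above 0 in 11 of 12 clusters of the earlier and 10 of 12 of the later library. Among genes that signal to other cells at E15.5, Fgf7 was at 37.5 against 14.8 CPM (1.34), Fgf10 at 34.7 against 16.8 CPM (1.05) and Wnt5a at 138 against 66.4 CPM (1.05). Cxcl12 and Hgf, cues for migrating muscle precursors, were at 202 against 117 CPM (0.78) and 27.7 against 15.9 CPM (0.80), and Igf1 was at 743 against 415 CPM (0.84). With clusters matched, Hgf and Igf1 were at 0.06 and 0.08. Over single clusters at E15.5 the median log2 ratio was 0.66 for Fgf7, 1.03 for Fgf10, 0.11 for Wnt5a and 0.14 for Cxcl12. Igfbp5, which binds insulin-like growth factors, was the 1 gene at least 1.5-fold lower, at 329 against 505 CPM (-0.62, -0.67 to -0.56).

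Among 12 genes of retinoic acid signalling, 8 reached 20 CPM at each age, with 3 at least 1.5-fold higher and 1 lower at E12.5 (median 0.30) and 3 higher and 0 lower at E15.5 (median 0.40). By the mean of both groups, 7 reached that level at E15.5, with a median of 0.22. With clusters matched 1 was higher at the earlier and 0 at the later age, and 0 were lower. Aldh1a2, which makes retinoic acid, was at 27.7 against 15.6 CPM at E12.5 (0.83, 0.50 to 1.15; 0.61 with clusters matched; above 0 in 11 of 12 clusters). At E15.5 it was at 27.6 against 9.71 CPM (1.51, 1.25 to 1.77), but at 0.03 with clusters matched. The retinol transporter gene Stra6 was at 32.1 against 15.1 CPM at E12.5 (1.08, 0.78 to 1.39). Cyp26b1, whose enzyme degrades retinoic acid, was lower at that age, at 22.2 against 48.0 CPM (-1.11, -1.43 to -0.80).

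Of 21 limb position genes, 15 reached 20 CPM at E12.5, with 1 at least 1.5-fold higher, 2 lower and a median of 0.03, and 9 at E15.5, with 3 higher, 0 lower and a median of 0.32. With clusters matched 0 were higher at either age, and 1 was lower, at the earlier one. The proximal homeobox gene Meis2 was at 314 against 202 CPM at E12.5 (0.63, 0.54 to 0.72) and at 137 against 60.7 CPM at E15.5 (1.18, 1.07 to 1.29). Shox2, another homeobox gene of the limb, was at 1011 against 683 CPM (0.56) and at 246 against 118 CPM (1.06), and at E12.5 its ratio was above 0 in 12 of 12 clusters. Inside clusters at E15.5, Shox2 was above 0 in 9 of 12 (median 0.17) and Meis2 in 10 of 12 (median 0.45). Hoxd10 (-0.71) and Isl1 (-0.71) were the lower genes at E12.5.

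Osr1-positive cells had a higher ratio of the forelimb factor Tbx5 to the hindlimb factor Tbx4. At E12.5 they had 440 Tbx5 and 195 Tbx4 UMIs, a log2 ratio of 1.17 (0.93 to 1.42), against 0.61 (0.49 to 0.72) in Osr1-zero cells. At E15.5 the counts were 274 and 173, a ratio of 0.66 (0.38 to 0.95) against -0.84 (-1.14 to -0.54). The ratio of Tbx5 to Pitx1, another hindlimb gene, was also higher in Osr1-positive cells, at -1.28 against -1.58 and at -2.46 against -3.45. Pitx1 itself was not lower in them at E15.5. It was at 90.8 CPM in Osr1-zero cells and at 117, 92.3 and 99.4 CPM in cells with 1, 2 and at least 3 Osr1 UMIs. Tbx5 was low at that age, at 8.31 CPM in Osr1-zero cells and 21.0, 19.6 and 16.4 CPM in these classes. Tbx4 was low as well, at 14.9 CPM in Osr1-zero cells and 14.5, 13.8 and 7.88 CPM in these classes. Inside clusters the log2 ratio of Tbx4 was above 0 in 5 of 12 at E12.5 and in 4 of 11 at E15.5. With clusters matched, the Tbx5 level had a log2 ratio of 0.39 in the earlier and 0.19 in the later library. Forelimbs and hindlimbs shared a library, so no limb was compared with another.

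Cartilage genes were lower in Osr1-positive cells. Of 15 chondrogenic genes, 13 reached 20 CPM in at least 1 group at E12.5 and were at least 1.5-fold lower, with a median of -1.05. At E15.5, 11 did, with a median of -2.07. Some of these entered only through the Osr1-zero group, where they had to be higher. By the mean of both groups, 12 reached 20 CPM at the earlier age (median -1.05) and 8 at the later (median -1.57). Sox9, the master regulator of cartilage, was at 375 CPM (357 to 394) against 664 CPM (652 to 676) at E12.5 and at 71.2 CPM (66.9 to 75.7) against 126 CPM (121 to 131) at E15.5, log2 ratios of -0.83 and -0.82. Its partners Sox5 and Sox6 were at -0.82 and -1.09 at E12.5. The cartilage collagen gene Col2a1 was at 339 against 692 CPM (-1.03, -1.11 to -0.95) and at 28.5 against 130 CPM (-2.18, -2.34 to -2.03). Sox9 transcripts were not absent from Osr1-positive cells: at 2000 UMIs, 35.9% (33.0 to 39.0) of them had a Sox9 UMI at E12.5, against 53.7% (52.2 to 55.2) of Osr1-zero cells.

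The lower cartilage level was smaller once clusters were matched, and inside single clusters it differed between genes and ages. With clusters matched, 12 chondrogenic genes reached 20 CPM at E12.5 and 0 were past 1.5-fold, yet all 12 had a ratio below 0, with a median of -0.32. At E15.5, 6 of 6 were below 0, with 2 past the fold and a median of -0.49. When only connective tissue-like clusters were used, 11 of 12 were at least 1.5-fold lower at E12.5. At E15.5, 3 reached 20 CPM there, 0 passed the fold and the median was -0.48. The gene Col11a1, of a fibrillar collagen found in cartilage and tendon, was below 0 in 12 of 12 clusters at E15.5 (median -0.46). At E12.5 the cartilage genes Col9a1 and Wwp2 and the Hedgehog receptor gene Ptch1 were below 0 in 11 of 12 clusters each. Other cartilage genes were mixed inside clusters at that age. Acan was above 0 in 8 of 12 (median 0.55) and Mia in 7 of 12 (median 0.09), Cnmd and Sox6 were below 0 in 6 of 12 each, and Col11a1 was below 0 in 7 of 12 (median -0.01).

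Of 8 osteoblast genes, 2 reached 20 CPM at E12.5, of which 1, Runx2, was at least 1.5-fold lower, and 0 reached it at E15.5. Runx2, the osteoblast regulator, was at 51.2 against 118 CPM at E12.5 (-1.21, lower bound -1.42), kept -0.82 with clusters matched and was lower in 12 of 12 clusters. The tendon regulator Scx was at 56.7 against 84.8 CPM at E12.5 (-0.58, -0.78 to -0.38) and at 14.1 against 57.7 CPM at E15.5 (-2.04, -2.26 to -1.82; -1.20 with clusters matched; below 0 in 10 of 10 clusters). Tnmd, a marker of maturing tendon, was at 46.6 against 153 CPM at E15.5 (-1.72, -1.84 to -1.60). Of 9 tenocyte genes, 4 reached 20 CPM at E12.5, with 1 higher, 1 lower and a median of -0.22, and 6 at E15.5, with 0 higher, 3 lower and a median of -0.61. By the mean of both groups, 3 reached that level at E12.5, with a median of -0.58. The lower gene at E12.5 was Col11a2. The higher one was Kera, which encodes keratocan, at 120 against 37.6 CPM (1.68, 1.51 to 1.85). At E15.5 Kera was at 61.5 against 61.0 CPM (0.01, -0.12 to 0.14).

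**Figure D3:**
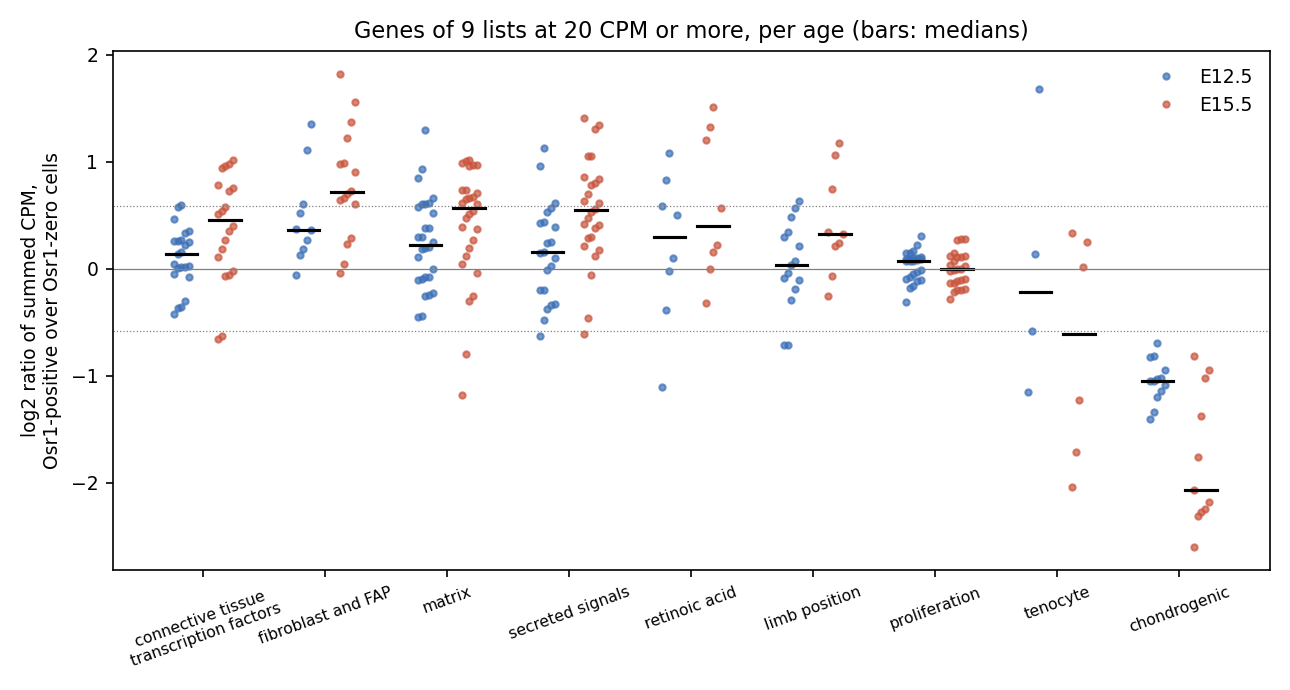
Log2 ratio of summed CPM in Osr1-positive over Osr1-zero cells (y axis) for every gene at 20 CPM or more of 9 gene lists (x axis), at E12.5 (blue) and E15.5 (red), with black bars for medians and dotted lines at 1.5-fold. Chondrogenic genes that reached 20 CPM, some only in Osr1-zero cells, lie below the lower line (medians -1.05 and -2.07), proliferation genes lie near 0, and fibroblast, FAP (fibro-adipogenic progenitor) and matrix genes lie mostly above 0.

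Levels were also followed over the number of Osr1 UMIs per cell, from 0 through 1 and 2 to 3 or more. At E12.5 Sox9 was at 664, 432, 256 and 226 CPM over these classes, and Col2a1 at 692, 386, 257 and 188 CPM. Lum ran the other way, at 121, 243, 406 and 550 CPM, as did Col1a2 at 817, 1150, 1403 and 1576 CPM. Steps from 0 to 1 and from 1 to 2 UMIs lay beyond the counting intervals for all 4 genes. The step from 2 to 3 or more did so for Lum alone, at 406 CPM (362 to 453) and 550 CPM (486 to 619). At E15.5 the widest step of Lum and Dcn was that from 0 to 1 UMI, and Lum was at 348, 558, 572 and 562 CPM and Dcn at 742, 1372, 1419 and 1610 CPM. Scx was at 57.7, 23.6, 10.8 and 5.25 CPM at E15.5, and Col2a1 at 130, 56.5, 11.1 and 8.48 CPM. Depth was also higher from class to class, and its part in these series was not tested.

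**Figure D4:**
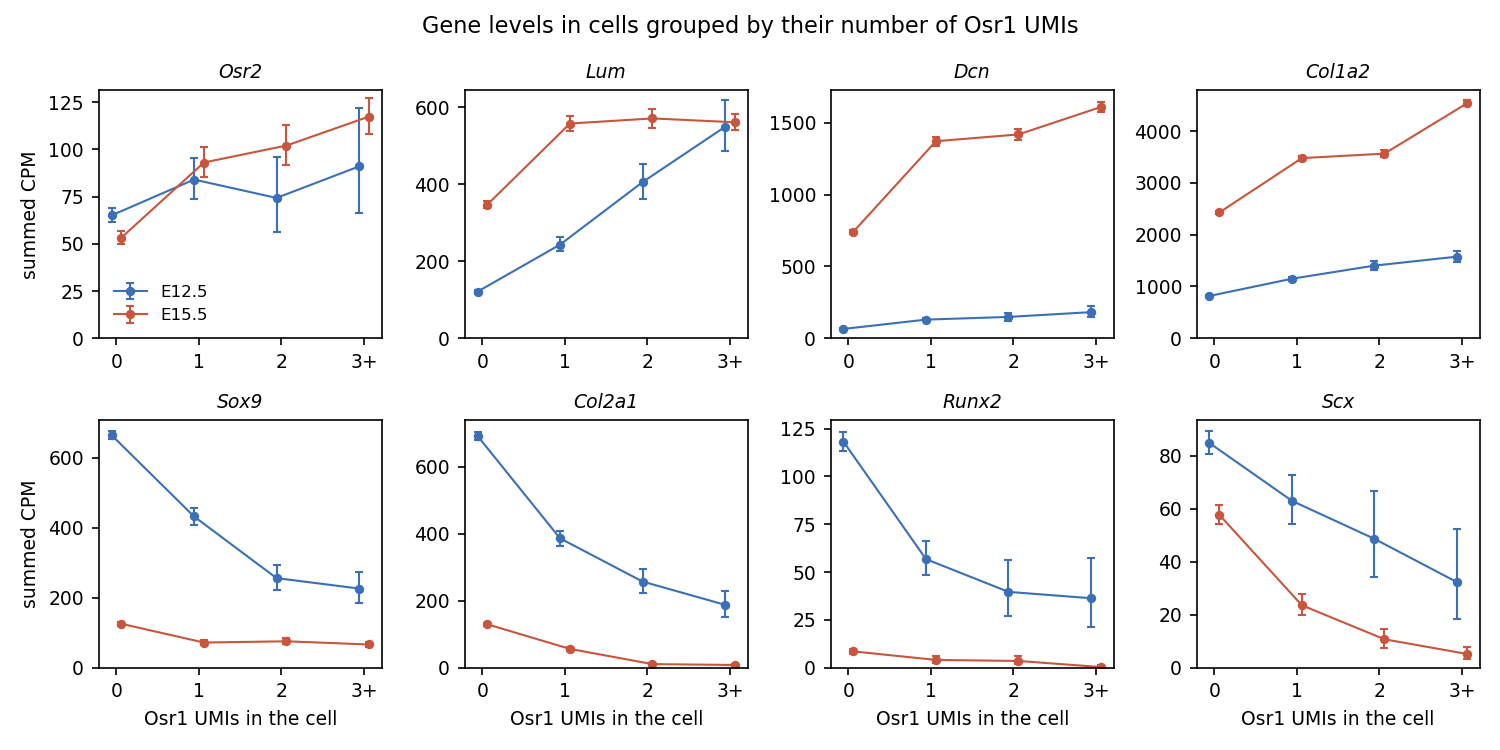
Summed CPM (y axis) of 8 genes in cells with 0, 1, 2 or at least 3 Osr1 UMIs (x axis) at E12.5 (blue) and E15.5 (red), with exact 95% Poisson intervals. Lum and Col1a2 climb and Sox9 and Col2a1 drop with the number of Osr1 UMIs at E12.5, and Scx drops from 57.7 to 5.25 CPM at E15.5.

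The 10 genes with the highest ratios at both ages were, apart from Dcn and Ntn1, outside the lists above. Agtr2, the type 2 angiotensin receptor, was at 77.0 against 37.4 CPM at E12.5 (1.04, 0.85 to 1.24) and at 409 against 171 CPM at E15.5 (1.26, 1.19 to 1.32). Its ratio was above 0 in 10 of 12 and 11 of 12 clusters. Tmeff2, a transmembrane protein with follistatin-like domains, had ratios of 1.44 and 1.31, but of 0.00 with clusters matched at E15.5. Apod, a lipocalin that carries lipids, was at 47.4 against 20.4 CPM (1.22) and at 80.1 against 36.4 CPM (1.14), with -0.03 when clusters were matched at E15.5. The others were Efemp1, a fibulin of the matrix (1.18 and 1.54), the synaptic organiser Cbln2 (1.87 and 1.07), the calcium-binding S100a6 (1.03 and 0.99), the adhesion protein gene Svep1 (1.49 and 0.93) and AW551984 (1.08 and 0.98). At E12.5 all 10 kept a cluster-matched ratio of at least 0.44, and at E15.5 the highest such value was 0.38.

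The lowest ratios at both ages were those of cartilage genes and embryonic globins. Col9a3 (-1.41 and -2.27), Col9a1 (-1.34 and -2.60), Mia (-1.31 and -2.25), Matn4 (-1.20 and -2.31), Cnmd (-1.15 and -1.76) and Acan (-1.05 and -2.25) are expressed in cartilage, as is Col2a1. The carboxypeptidase gene Cpm was at -1.04 and -2.00. The embryonic globins Hbb-y and Hba-x were at -2.43 and -2.21 at E12.5 and at -5.64 and -5.57 at E15.5. With clusters matched Hbb-y and Hba-x were at -5.74 and -5.67 in the later library. Inside the connective tissue-like clusters, the ratios were 0.04 and 0.13 in the earlier library and 0.14 and 0.23 in the later. The adult globins Hbb-bs, Hba-a1 and Hbb-bt were higher there at E15.5, at 1.25, 1.41 and 1.13.

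Each age also had genes of its own among the highest. At E12.5, beside Cbln2, Kera and Svep1, these were the lectin gene Chodl at 22.2 against 7.36 CPM (1.60, 1.20 to 1.99) and the natriuretic peptide receptor gene Npr3 at 25.4 against 9.26 CPM (1.45, 1.09 to 1.81). At E15.5 Chodl was at -0.57 and Npr3 at -0.50. At E15.5 the chemokine gene Cxcl13 was highest, at 20.2 CPM (17.9 to 22.6) against 1.57 CPM (1.04 to 2.27), a log2 ratio of 3.68 (lower bound 3.12) that was 2.85 with clusters matched and above 0 in 5 of 5 clusters. It was followed by the transcription factor gene Gata6 (2.17, 1.83 to 2.53), Dpt (1.82), the Wnt ligand gene Wnt2 (1.81) and the peptidase inhibitor gene Pi15 (1.64). These 4 had cluster-matched ratios of 0.61, 0.53, 0.31 and 0.38. Cbln2, Chodl and Npr3 at E12.5, and Cxcl13, Gata6 and Wnt2 at E15.5, were under 20 CPM in Osr1-zero cells. They thus entered only through the group where they were high, and the interval of Cxcl13 reached below 20 CPM there.

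The lowest genes of each age are mostly known from other cell types. At E12.5 they were the globins Hbb-bh1 (-2.71), Hbb-bs (-2.54), Hba-a1 (-2.53), Hbb-bt (-2.53) and Hbb-y. At E15.5 they were Krt1 (-8.07) of epidermis, Dct (-7.36) of melanocytes, Gpr65 (-7.04, -9.32 to -5.48), Cstdc5 (-6.79) and the myeloid gene Tyrobp (-6.50), each with 3 to 5 UMIs in Osr1-positive cells. Markers of several other cell types were at higher levels in the Osr1-zero cells, and their part in the ratios was not tested. At E15.5 the summed level was 576 CPM against 14.4 CPM for the 4 mast cell genes and 240 against 24.6 CPM for the 7 Schwann genes. For the 14 muscle-lineage genes it was 349 against 87.9 CPM, and for the 8 mural genes 465 against 264 CPM (3 of 7 lower, 1 higher). For the 8 erythroid genes it was 3186 against 1758 CPM, and 1817 against 349 CPM at E12.5, and the 6 of them that reached 20 CPM were at least 1.5-fold lower at each age. Inside the connective tissue-like clusters the direction of the erythroid genes turned at E15.5, where 4 reached 20 CPM, all 4 were at least 1.5-fold higher and the median was 1.21. At E12.5, 4 reached it there, 0 passed the fold and the median was -0.14. With 7 more marker genes required at 0, the counts at E15.5 were 134 higher and 124 lower genes. Restricted to connective tissue-like clusters they were 135 higher and 54 lower.

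Cell division did not separate the groups in the plain comparison. None of 25 proliferation genes was past 1.5-fold at either age, and the medians were 0.07 at E12.5 and -0.01 at E15.5. At 2000 UMIs, a Top2a UMI was found in 48.0% of Osr1-positive and 48.1% of Osr1-zero cells of the E12.5 library, and in 25.3% and 26.1% at the later age. The latter difference was -0.796 percentage points (-3.95 to 2.40). In cells with 0, 1, 2 and at least 3 Osr1 UMIs, however, Top2a was at 588, 470, 547 and 893 CPM at E15.5. At E12.5 it was at 910, 900, 972 and 1261 CPM over these classes. Within connective tissue-like clusters, 14 of 25 proliferation genes were at least 1.5-fold higher at E15.5 (median 0.67), against 135 of all 6512 genes. At E12.5, 0 of the 25 were. The E15.5 cluster led by Nusap1 and Hmmr was also the deepest of the connective tissue-like ones, at a median of 14778 UMIs, and the part of depth in this was not tested.

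The last comparison was between the ages, within Osr1-positive cells. Age, library and depth cannot be told apart here, and this comparison shares its cells with the preceding ones. Of 7589 genes, 556 (7.33%) were at least 2-fold higher and 1396 (18.4%) at least 2-fold lower at E15.5, with the median gene at a log2 ratio of -0.37. In Osr1-zero cells 443 of 7475 genes (5.93%) were higher and 1221 (16.3%) lower, with the median gene at -0.38. Relative to the median gene, 1006 genes were higher and 624 lower in Osr1-positive cells.

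Fibroblast and matrix genes were mostly higher at E15.5. Of the 28 matrix genes, 15 were at least 2-fold higher and 1 lower, with a median of 1.10, against 14 and 2 with a median of 1.00 in Osr1-zero cells. Of 16 fibroblast genes at 20 CPM or more at either age, 11 were higher and 2 lower, with a median of 1.81. Some entered only through the age where they were high, and by the mean of both ages 14 did, with a median of 1.57. In Osr1-zero cells 9 of 14 were higher and 1 lower, with a median of 1.74. Dpt went from 5 UMIs in 1306 cells to 4407 UMIs in 1260 cells, 1.20 CPM (0.388 to 2.79) to 307 CPM (298 to 316), with a log2 ratio between 6.78 and 9.63. Clec3b (7.55, 6.00 to 9.83), the tenascin gene Tnxb (7.08, 5.22 to 10.1), Col5a3 (6.46, 4.91 to 8.74) and the microfibril gene Mfap5 (5.86, 5.08 to 6.77) rested on 2 to 13 UMIs at E12.5. Ecrg4 had 0 UMIs at E12.5 but 104 CPM at the later age, a log2 ratio of at least 7.17 against a floor of 3 UMIs. The rest of the 10 highest were the chemokine gene Cxcl9 (6.31, 4.45 to 9.35), the adult globin Hbb-bs (6.18), Fmo1 (6.07, 4.21 to 9.12) and Ndufa4l2 (6.07, 4.51 to 8.35).

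Osr1-zero cells had log2 ratios of 7.80 for Dpt, 8.68 for Clec3b and 7.01 for Tnxb. Dcn went from 139 to 1466 CPM in Osr1-positive cells (3.39, 3.28 to 3.52), Postn from 121 to 1401 CPM (3.54, 3.41 to 3.67) and Igf1 from 175 to 743 CPM (2.09, 1.98 to 2.20). Of 10 adipogenic genes, 4 reached 20 CPM, of which Cebpb, Cebpd and Lpl were at least 2-fold higher and Zfp423 lower (-1.25), with a median of 2.42. In Osr1-zero cells 2 of 5 were higher and 1 lower, with a median of 0.55. In Osr1-positive cells Cebpd was at 11.5 and 142 CPM (3.63, 3.22 to 4.08). Pparg, the adipocyte regulator, did not reach that level, with 0 UMIs in the earlier library against 8.14 CPM in the later. Cd34, a surface marker of adult muscle-resident progenitors, was at 10.5 and 97.5 CPM (3.21, 2.78 to 3.68), and Ly6a, which encodes Sca-1, at 0 UMIs and 17.0 CPM.

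Limb position and cartilage genes were lower at E15.5. All 13 limb position genes at 20 CPM or more were below 0, 11 of them by at least 2-fold. The median was -1.45, against -1.72 over 15 genes in Osr1-zero cells. Among the 10 lowest genes were Pcp4 (-6.90, -8.80 to -5.51), the calcium-binding Calb2 (-6.27, -7.35 to -5.37), Kif26b (-4.73), the Wnt effector gene Lef1 (-4.51), Astn1 (-4.50), the homeobox gene Lhx9 (-4.36), Rab11fip4 (-4.32) and Runx2 (-4.24). The embryonic globins Hba-x (-5.86) and Hbb-y (-5.73) were also there. Of 12 chondrogenic genes, 11 were at least 2-fold lower, with a median of -2.79, against 9 of 13 and -2.07 in Osr1-zero cells. In Osr1-positive cells Sox9 was at 375 and 71.2 CPM (-2.40, -2.51 to -2.28). Scx was at 56.7 and 14.1 CPM (-2.01), while Tnmd was at 4.54 and 46.6 CPM (3.36, 2.70 to 4.10). Of the connective tissue factors, Tbx5 (-2.47), Foxp2 (-2.38) and Prrx1 (-1.72) were lower, and Klf2 (3.80) and Klf4 (1.78) were higher. Osr2 was at 83.0 and 104 CPM (0.32, 0.15 to 0.49).

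**Figure D5:**
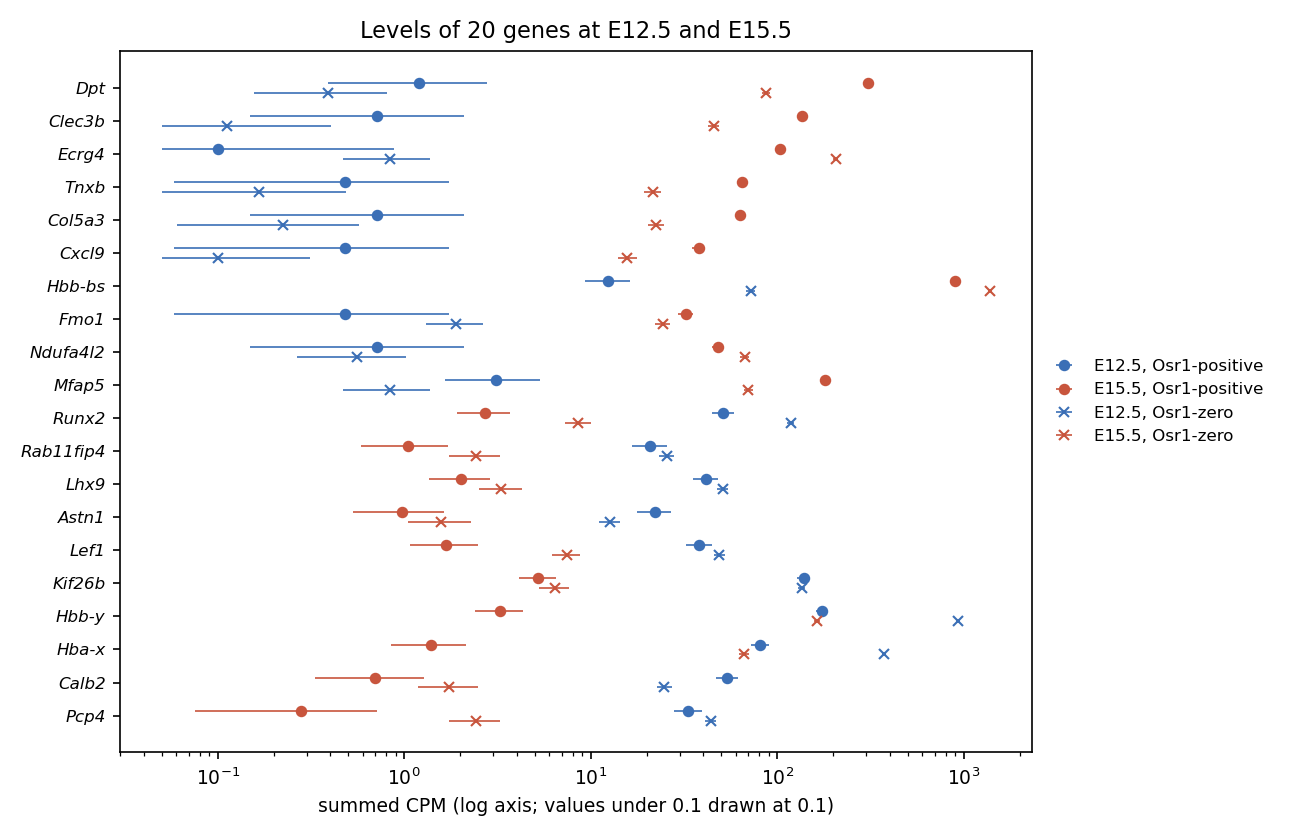
Summed CPM (x axis, log scale, with exact 95% Poisson intervals) of the 10 genes with the highest and the 10 with the lowest ratio of E15.5 to E12.5 in Osr1-positive cells (y axis), in Osr1-positive (circles) and Osr1-zero cells (crosses) at E12.5 (blue) and E15.5 (red). Values under 0.1 CPM are drawn at 0.1. Dpt goes from 1.20 to 307 CPM and Pcp4 from 33.2 to 0.278 CPM in Osr1-positive cells, and Osr1-zero cells lie on the same side for each of the 20 genes.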

How the data were processed

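Members, gene lists and comparisons were chosen with earlier results of these data known. The deposited matrices hold raw counts of UMIs, not normalized, and per the file headers come from Cell Ranger 4.0.0. The submitters' processing notes also name genome build mm10 and Seurat 4.3.0, whose role, like the annotation release and the cell-calling settings, is not given in the sources used here. Cell types were not taken from the authors.

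Counts were summed over the cells of each group and scaled to CPM. Ratios were compared for genes at 20 CPM or more in at least 1 group, leaving out the 8 genes of the rule, and a group at 0 was set to 3 UMIs. CPM have exact Poisson intervals, ratios exact conditional ones, shares Clopper-Pearson ones and differences of shares Newcombe ones, at 95%. Share comparisons used cells thinned to 2000 UMIs. Cells meeting all conditions but Osr1 were clustered per library (2000 variable genes without the rule genes, Xist and Y-linked genes, 30 components, 15 neighbours, Leiden resolution 1.0). A cluster took a class name when at least 3 class markers were 2-fold over the other clusters and in 10% of its cells. At least 1 class marker also had to be among its 10 leading genes. Connective tissue-like clusters were drawn from those left without a class. At least 3 of their connective tissue markers, Osr1 aside, were in 10% of cells and 2-fold over the pooled clusters of non-mesenchymal classes. Doublets were removed only in an alternative, by Scrublet-type scores at 0.8% per 1000 cells (1270 and 190 cells). They included 212 of 1306 Osr1-positive and 581 of 6860 Osr1-zero cells at E12.5. At E15.5 they included 84 of 1260 and 59 of 1907. The main values keep these cells.

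Named genes were those with the 10 highest and 10 lowest ratios at both ages, the 5 at each age and the 10 between ages, genes of opposite direction, and members of 20 lists. Of 32285 gene identifiers, 32158 matched GENCODE vM21 (GRCm38), which gave the position of Osr1. Python 3.11.15, numpy 2.4.6, scipy 1.17.1, scikit-learn 1.9.0, igraph 0.11.9 and leidenalg 0.10.2 were used. The script for the ratios was checked on simulated counts.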

Additional observations from a re-analysis of the deposited data

Results flagged for a closer look

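The Osr1-positive and Osr1-zero cells differed in opposite directions at the 2 ages for 3 genes, each at least 1.5-fold, and this difference between ages was not tested. Tagln, a smooth muscle gene of the actin cytoskeleton, had a log2 ratio of 0.95 (0.74 to 1.17) in the E12.5 library but of -1.46 (-1.58 to -1.35) at E15.5. With clusters matched the values were 0.54 and 0.29, so the sign at E15.5 differed once clusters were matched. The mural-like cluster at E15.5, of which Tagln was a leading gene, held 6 of the 1260 Osr1-positive cells. Lix1 was at 0.73 (0.55 to 0.91) and -1.60 (-1.89 to -1.33), and at 0.26 and -0.56 with clusters matched. Sema3d, a semaphorin guidance cue, was at -0.63 (-0.93 to -0.34) and 0.70 (0.50 to 0.89), and at -0.04 and 0.12 with clusters matched.

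Among cells the rule left out, 3 classes had an Osr1 share above that of Cdh5 cells, with intervals that do not overlap. At 2000 UMIs the share was 8.97% (6.77 to 11.6) in Gdf5 cells at E12.5, against 14.2% (8.62 to 21.5) in Gdf5 cells at E15.5. It was 11.8% (8.56 to 15.7) in Myog cells at E15.5, against 2.16% at E12.5. The corresponding Osr1 levels were 55.6, 80.4 and 45.7 CPM.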

How the results depend on the processing

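No paired analysis was possible because each age had 1 library. With 5 CPM in at least 1 group, 389 genes were higher and 268 lower at E12.5, 650 and 722 at the later age, and 958 and 2359 between ages. With 50 CPM the values were 69 and 35, 170 and 101, and 324 and 771. With 2 or more Osr1 UMIs, 341 and 231 genes passed at E12.5, and with cells thinned to 2000 UMIs, 196 and 162. Thinned cells at E15.5 gave 238 and 292. In cells with Y-linked UMIs only, 456 and 370 passed at E12.5 and 493 were higher at E15.5. With 7 more genes at 0, 134 and 124 passed at E15.5. With clusters matched the counts were 22 and 11, and 12 and 21. In connective tissue-like clusters alone 135 and 54 passed at E15.5. Relative to the median gene, 1006 were higher and 624 lower between ages. The cause of these shifts was not tested, apart from the filters, which change how many genes enter.

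The thinned Osr1 share was 6.92% and 7.44% at the earlier and later age with 1000 UMIs, 21.8% and 24.9% with 4000 UMIs (difference 3.12 points), and 16.0% and 39.8% at full depth (23.8 points). In Xist-only cells it was 11.0% at E12.5 (difference 3.49 points), and in Y-linked-only cells 17.1% (-4.27 points). With 7 more genes at 0 it was 16.7% at E15.5 (2.83 points). In connective tissue-like clusters it was 15.3% and 20.1% (4.81 points). The highest cluster share at E12.5 was 45.7% at resolution 2.0 and 44.9% with at least 1000 genes, and at E15.5 30.1% at resolution 0.5 and 31.4% with 4000 variable genes.

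Of 1117 values of named genes under other settings, 768 stayed within the interval of the value reported, 334 moved outside it without reversing, and 15 reversed. With clusters matched at E15.5, Apod was at -0.03 and Tagln at 0.29. In connective tissue-like clusters, Hba-x was at 0.13 and Hbb-y at 0.04 at E12.5, and at E15.5 Hba-x was at 0.23, Hbb-y at 0.14 and Col9a3 at 0.18. In Xist-only cells Hba-x was at 0.81 and Hbb-y at 0.48 at E15.5. In Y-linked-only cells at E12.5, Hba-a1 was at 0.33, Hba-x at 0.47, Hbb-bs at 0.20, Hbb-bt at 0.24 and Hbb-y at 0.11. Thinned, Cstdc5 was at 0.39 at E15.5.

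Depth limits genes near 1 UMI, such as those with under 20 UMIs at E12.5. Weighting by clusters and restriction to connective tissue-like clusters were chosen after seeing the data.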
